A study of Mus musculus with 18 samples.

Results

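The renal cortex of male CD1 mice was compared between 2 windows of early postnatal life: the arrays at P6, P8 and P10 against those at P0, P2 and P4, where P is the day after birth. These 6 arrays were chosen by the labelled region and age alone, and are 6 of the 18 arrays of the series, which covers cortex and medulla at 9 ages up to P90. CD1 is an outbred stock and the labels give no treatment or engineered allele, so by their labels the later and the earlier cortex arrays differ in age alone. Each array measured RNA pooled from 4 animals, and each age and region has 1 array. The ages of a window therefore stand in for replicates (n = 3 each), and a p-value here measures the spread among ages of pooled animals, not among single mice. The question was what changed in the cortex around the end of nephron formation.

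In the mouse, new nephrons continue to form in the outer cortex for some days after birth. Progenitor cells of the cap mesenchyme, which surround the tips of the branching ureteric bud, are used up as they turn into renal vesicles, and no progenitors are kept afterwards. The nephrons already laid down then lengthen, stop dividing and take on the transport and metabolic work of the proximal tubule, loop of Henle and distal tubule.

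Values are the deposited log2 intensities of Illumina bead arrays. A gene was tested if a probe lay above the 75th percentile of its array on at least 3 of all 18 arrays, a level between 8.30 and 8.35 on the 6 cortex arrays and called the level filter below. This left 8901 genes, each read from its brightest probe. Differences are P6-P10 minus P0-P4 on the log2 scale, and a gene was called at a limma adjusted p (Benjamini-Hochberg over the 8901 genes) under 0.05. The medulla arrays of the same ages gave the same contrast in the other region, with no array in common. At P6-P10 the regional labels matched their markers. Slc34a1, the main phosphate transporter of the proximal tubule, averaged 14.21 in cortex and 13.30 in medulla. Slc14a2, the urea transporter of the inner medulla, averaged 8.45 in cortex and 12.12 in medulla. At P0-P4 the proximal tubule genes with the largest rises read higher in medulla than in cortex. Slc5a2 averaged 10.04 in cortex and 10.50 in medulla there, Miox 13.02 and 13.38, and Slc7a9 11.11 and 11.41. The part of this early order in the differences below was not tested. Markers of brown fat did move with the age windows. Ucp1, the uncoupling protein that defines brown fat cells, read 10.67, 9.53 and 11.57 at P6, P8 and P10, against 8.0, 8.32 and 10.12 at P0, P2 and P4, and its values are set out with the metabolic genes below.

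In the cortex 2691 of the 8901 genes were called, or 30.2% of those tested: 1301 were higher at P6-P10 (14.6%) and 1390 lower (15.6%). The median difference was 0.42 among the genes called higher and -0.40 among those called lower, against -0.01 over all genes. Larger changes were fewer: 79 genes were called higher by 2-fold or more (0.888%) and 54 lower by 2-fold or more (0.607%). For 4199 genes (47.2%) the 3 later arrays all lay on one side of the 3 earlier ones. The count of calls depends on single arrays. It was 1414 without P8, 1471 without P2, 1621 without P10 and 1640 without P0.

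Secreted kidney proteins and tubule transporters were among the largest rises. Klk1b27, a glandular kallikrein (a serine protease), read 12.86, 13.53 and 13.76 at P6, P8 and P10, against 10.09, 10.57 and 11.69 at P0, P2 and P4, a difference of 2.60 (SE 0.37, adjusted p = 0.00255). Its relatives Klk1b5 (2.27, SE 0.34), Klk1b26 (2.20, SE 0.32) and Klk1 (1.88, SE 0.32), the tissue kallikrein of the connecting tubule, rose with it. The 4 genes are close in sequence, so their probes may read one another's transcripts and they cannot be counted as separate observations. A second probe for Klk1b27 gave only 0.15, and the other 3 probes for Klk1b5 gave 2.40, 0.53 and 0.24.

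Kap, the kidney androgen-regulated protein of the mouse proximal tubule, read 11.58, 12.16 and 12.80 at P6, P8 and P10, against 9.13, 9.67 and 10.14 at P0, P2 and P4 (difference 2.54, SE 0.31, adjusted p = 0.00246). Rnase4, a secreted ribonuclease, read 11.01, 11.93 and 11.98 in the later window, against 8.65, 8.80 and 9.90 in the earlier one (2.52, SE 0.34, adjusted p = 0.00248), and its second probe gave 1.37. In both genes every later array lay more than 1 unit above every earlier one. Pvalb, the calcium-binding parvalbumin of the early distal convoluted tubule, read 12.18, 12.82 and 12.93, against 9.74, 10.49 and 11.25 (2.15, SE 0.33, adjusted p = 0.00299). Slc5a2, the SGLT2 glucose transporter of the early proximal tubule, read 11.61, 12.71 and 12.09, against 9.49, 9.87 and 10.75 (2.10, SE 0.33, adjusted p = 0.00302). For both, P4 stood highest of the earlier ages and below all later ones. The other genes among the 12 with the largest rises were Angptl7, a secreted angiopoietin-like protein (2.13), F13b, the carrier subunit of coagulation factor XIII (2.08), Cyp4a14, a fatty acid hydroxylase (1.75), and Enpp6, a choline phosphodiesterase (1.74).

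Transcription factors and signalling genes of the forming nephron were among the largest falls. Sox11, a transcription factor of early nephron structures, read 9.09, 8.84 and 8.63 at P6, P8 and P10, against 11.28, 11.60 and 10.07 at P0, P2 and P4, a difference of -2.13 (SE 0.33, adjusted p = 0.00294), and its other probes gave -1.04 and -1.23. Gja1, a connexin that forms gap junctions, read 10.50, 10.05 and 10.24, against 12.48, 12.68 and 11.82 (-2.07, SE 0.20, adjusted p = 0.0021). In both genes P2 was the highest age and P4 the lowest of the earlier ones, still above every later age. Hey1, a target gene of Notch signalling, read 8.63, 8.49 and 8.43, against 10.53, 10.98 and 9.60 (-1.85, SE 0.28, adjusted p = 0.00283). Uncx, a homeobox factor expressed in nephron progenitors, read 8.02, 7.89 and 8.0, against 10.17, 10.14 and 8.68 (-1.70, SE 0.33, adjusted p = 0.00681). Since Uncx was below the level filter on all 3 later arrays, its later level is only an upper bound: taking the later arrays at the filter, it was at least 2.52-fold lower.

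Among the rest of the 12 largest falls were Igf2, the fetal growth factor (-1.94), Wt1, a zinc-finger factor of progenitors and podocytes (-1.69), and Lhx1, a LIM homeobox factor of the renal vesicle and ureteric bud (-1.67). Tead2, a transcription factor of the Hippo pathway, had a difference of -1.68, Fxyd6, a regulator of the sodium pump, -1.90, and the actin-binding gene Lsp1 -1.65. Capn6, a calpain relative, had -1.73. Hs3st3b1, a heparan sulfate sulfotransferase, was called at -1.75 from its brightest probe, but its second probe gave 0.05. A fall in a whole-cortex array can come from fewer cells of a type or from less RNA per cell, and these arrays cannot tell the 2 apart.

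**Figure D1:**
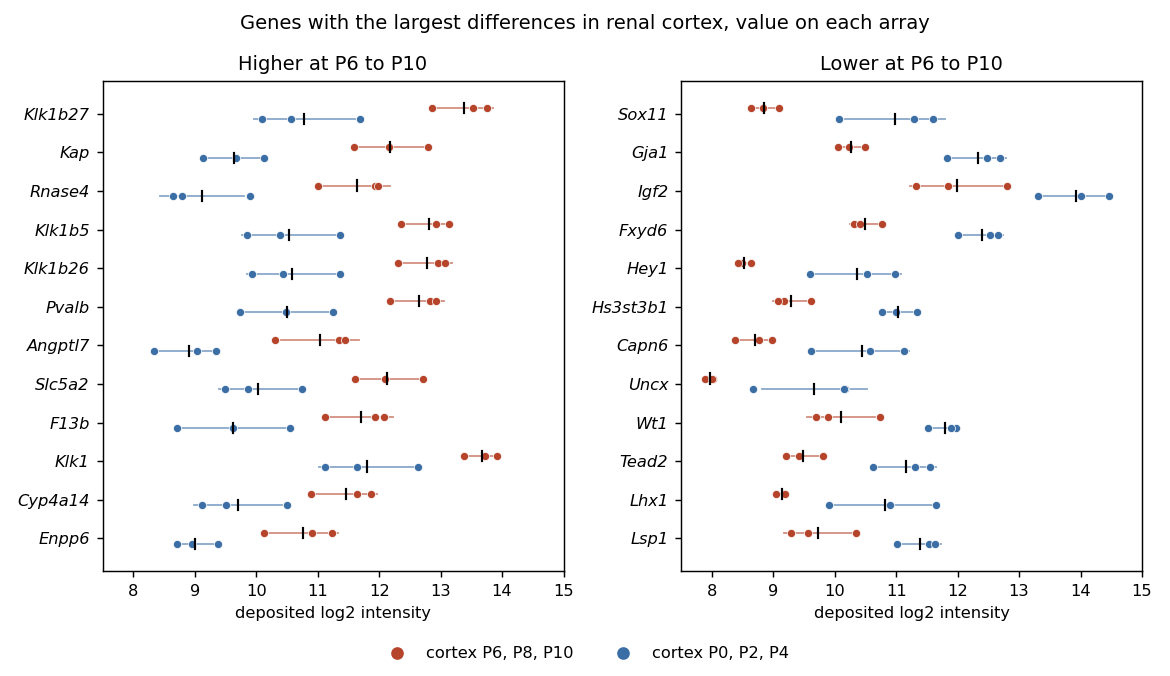
Deposited log2 intensity (x axis) on each of the 6 cortex arrays for the 12 genes with the largest rises (left) and falls (right); red points are P6, P8 and P10, blue points P0, P2 and P4, black ticks the group means and lines 1 SD either side. In all 24 genes the red points do not overlap the blue ones, which the choice of these genes required; Sox11, Uncx and Lhx1 spread over more than 1 unit among the early ages.

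Genes of the nephron-forming zone were then read as lists, in which a gene may stand more than once (Wt1 also among podocyte genes, Lhx1 also at the ureteric tip). Of 10 tested genes known from nephron progenitors, 4 were called lower and 1 higher, with a median difference of -0.40. Besides Uncx and Wt1, the genes called lower were Tmem100 (-0.76, above the level filter on 1 of 3 later arrays) and Sall1, a zinc-finger factor that keeps progenitors undifferentiated (-0.47, or -0.22 from a second probe). Crym, a thyroid hormone-binding protein, was called higher (0.82). The calls of Tmem100, Sall1 and Crym were each lost when P2, P8 or P10 was left out, and that of Tmem100 also without P0 or P6. Cited1 was above the level filter at P0 alone of the 6 cortex arrays, where it read 8.56.

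Structures committed to form nephrons followed. Of 15 tested genes of renal vesicles and later segments, 8 were called lower and 1 higher, with a median of -0.41. After Sox11 and Hey1, Lhx1 read 9.05, 9.20 and 9.19 at P6, P8 and P10, against 10.90, 11.64 and 9.91 at P0, P2 and P4 (-1.67, SE 0.34, adjusted p = 0.00777), and its second probe gave -0.84. Osr2, an odd-skipped zinc-finger factor, read 9.91, 10.29 and 10.32, against 11.48, 11.53 and 11.64 (-1.37, SE 0.11, adjusted p = 0.0021). Osr2 held its level through P4 and was lower from P6 on, whereas Lhx1 was already lower at P4. Ccnd1, the G1 cyclin D1, fell by 0.64, a call lost without P8, and Pax8, a paired-box factor of the nephron lineage, by 0.58, with 2 of 3 later arrays above the filter. Other probes for these genes gave differences between -0.70 and -0.02 for Ccnd1 and of -0.05 for Pax8.

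At the ureteric tip 5 of 7 tested genes were called, all lower, with a median of -0.89. Sox9, a tip and progenitor factor, read 8.43, 8.42 and 8.43 at P6, P8 and P10, against 9.66, 9.51 and 8.94 at P0, P2 and P4 (-0.95, SE 0.16, adjusted p = 0.00371). Etv4, a transcription factor switched on by Ret signalling, read 8.09, 8.15 and 8.14, against 9.48, 9.29 and 8.39. It was below the level filter on all 3 later arrays and at least 1.65-fold lower (adjusted p = 0.017), a call lost without P0, P2, P8 or P10. Gfra1, the co-receptor for the growth factor GDNF, fell by 0.89 (SE 0.18, adjusted p = 0.0073), with 2 of 3 later arrays above the filter. The receptor Ret itself passed the level filter on too few arrays to be tested: it read 7.94, 8.08 and 8.03 at P6, P8 and P10, all below the filter, against 9.05, 8.80 and 8.14 at P0, P2 and P4.

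Signalling pathways that act in this zone each had more genes called lower than higher, to unlike degrees, beside 15.6% lower over all genes. In the Notch pathway 5 of 9 tested genes were lower and none higher, among them the receptor Notch1 (-0.69, SE 0.11, adjusted p = 0.0036), the ligand Dll1 (-0.41) and the feedback inhibitor Nrarp (-0.49). In the Wnt pathway 3 of 11 were lower and 1 was higher, the secreted antagonist Sfrp1 (0.76). The agonist Rspo3 was among the lower ones (-0.44, above the level filter on 1 of 3 later arrays, and not called without P8). So were Sfrp2 (-0.71, not called without P0, P2 or P8) and Axin2 (-0.33). Axin2 was above the filter on 0 of 3 later and 1 of 3 earlier arrays. Among Bmp and Tgf beta genes 3 of 13 were lower, namely the target genes Id3 (-0.96) and Id1 (-0.54) and the extracellular binding protein Fstl1 (-0.90, or -0.30 from a second probe, and not called without P2, P8 or P10). Of 10 genes of Fgf and receptor kinase signalling 4 were lower and 3 higher, with a median of -0.06. The Fgf receptor Fgfr2 fell by 1.03 from its brightest probe, against -0.04 from a second. The growth factors Fgf1 (0.79, or -0.003 from a second probe) and Egf (1.32, or 0.06 from a second probe) were higher. Of 11 stromal progenitor genes, 6 were lower and 2 higher, with Meis1, a stromal homeobox factor, at -0.99. Of 19 tested Hox genes 6 were called lower and none higher, led by Hoxb2 (-1.05) and Hoxb5 (-1.04).

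Imprinted genes of fetal growth moved the same way: 7 of 13 were called lower and none higher, with a median of -0.61. Igf2 read 12.81, 11.84 and 11.32 at P6, P8 and P10, against 14.46, 14.01 and 13.31 at P0, P2 and P4, so that every age stood below the one before it. Mest (-1.62), Dlk1 (-1.50, or -0.57 from a second probe) and the growth factor receptor adaptor Grb10 (-1.08, with -0.02 from a second probe) followed. Dlk1 was above the level filter on 1 of 3 later arrays.

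Genes of cell division were lower at P6-P10, with none higher in 2 of 3 lists. Of 17 tested mitosis genes, 14 were lower and none higher, with a median of -0.48. Of 21 genes of DNA replication, 12 were lower and none higher, with a median of -0.33. Cenpa, the centromeric histone H3 variant, read 10.79, 10.63 and 10.72 at P6, P8 and P10, against 11.74, 11.98 and 11.46 at P0, P2 and P4 (-1.02, SE 0.12, adjusted p = 0.00246), although its second probe gave -0.09. Top2a, the topoisomerase that untangles chromosomes in mitosis, read 9.16, 9.34 and 9.36, against 10.31, 10.57 and 9.76 (-0.93, SE 0.17, adjusted p = 0.00579). In both genes P2 was the highest of the 6 arrays and the 3 later ages lay within 0.20 of one another. Kif23, a kinesin of the dividing cell's midzone, had -0.71, Plk1, the polo-like kinase, -0.67 (0.16 from a second probe), and the replication genes Rrm1, Mcm4 and Uhrf1 -0.70, -0.68 and -0.67.

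Histone genes that are made during DNA replication split by type. Of 18 tested, 10 were lower and 4 higher, with a median of -0.79. H2ac12, an H2A gene, read 10.75, 11.44 and 11.58 at P6, P8 and P10, against 12.98, 13.19 and 11.98 at P0, P2 and P4 (-1.46, SE 0.31, adjusted p = 0.00857), and H3c4, an H3 gene, had -1.27. The 10 histone genes called lower were of the H2A and H3 types, and the 4 called higher, H2bc4 (0.68), H4c8 (0.53), H2bc11 (0.40) and H2bc7 (0.37), named here after their values were seen, were of the H2B and H4 types. Histone copies are nearly alike in sequence, so the probes may not tell them apart.

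The promoters of these genes carry short sequences known from cell cycle genes, and 3 are shown because their genes fell together. The windows run from 250 bases before to 50 bases after the annotated start (RefSeq, build GRCm38.p6), 1 window per gene symbol, and motifs were searched on both strands. Capitals mark the cell cycle homology region TTTGAA and the CCAAT box CCAAT for Cenpa and Top2a, and the CCAAT box and the TATA box TATAAA for H2ac12. A match on the other strand appears as TTCAAA or ATTGG. The TATAAA match of H2ac12 begins 15 bases after the annotated start, and the TTTGAA match of Cenpa 16 bases after it.
Cenpa (chr5:30666636-30666935, plus strand): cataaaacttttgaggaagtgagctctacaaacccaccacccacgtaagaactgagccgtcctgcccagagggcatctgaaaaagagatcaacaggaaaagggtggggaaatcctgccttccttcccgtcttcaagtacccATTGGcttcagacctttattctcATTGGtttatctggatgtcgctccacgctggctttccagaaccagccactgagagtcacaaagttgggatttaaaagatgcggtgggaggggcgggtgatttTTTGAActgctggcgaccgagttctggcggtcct
Top2a (chr11:99024140-99024439, minus strand): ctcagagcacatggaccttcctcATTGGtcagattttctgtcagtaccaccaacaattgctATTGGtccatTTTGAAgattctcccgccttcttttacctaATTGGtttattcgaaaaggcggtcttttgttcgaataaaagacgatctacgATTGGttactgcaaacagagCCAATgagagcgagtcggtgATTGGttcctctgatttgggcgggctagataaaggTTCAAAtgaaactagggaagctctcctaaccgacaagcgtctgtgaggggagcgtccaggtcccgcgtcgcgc
H2ac12 (chr13:22035594-22035893, minus strand): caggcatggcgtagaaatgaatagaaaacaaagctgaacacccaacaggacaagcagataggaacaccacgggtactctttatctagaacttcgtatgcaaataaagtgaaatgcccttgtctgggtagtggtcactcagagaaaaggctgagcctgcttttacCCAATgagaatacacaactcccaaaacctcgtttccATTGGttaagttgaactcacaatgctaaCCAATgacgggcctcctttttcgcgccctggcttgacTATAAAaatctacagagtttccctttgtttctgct

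TTTGAA was found in 16 of the 23 mitosis gene promoters in the reference table (69.6%), against 11.6% of the promoters of genes tested and 18.1% of all 27025 promoters. The CCAAT box was in 78.3% of the mitosis promoters, against 38.2% of genes tested and 37.9% of all. Among histone genes 62.1% held TATAAA, against 7.79% of genes tested and 14.2% of all promoters. Among all genes called lower TTTGAA was in 14.1% and the CCAAT box in 42.1%, and among those lower by 2-fold or more in 18.2% and 59.1%. No motif of this set contains another, though neighbouring matches can share letters.

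Genes of the translation machinery were lower as well. Of 18 tested genes of ribosome building and translation, 13 were called lower and none higher, with a median of -0.45. Fbl, the methyltransferase of the nucleolus, read 10.84, 10.73 and 10.59 at P6, P8 and P10, against 11.71, 11.68 and 11.33 at P0, P2 and P4 (-0.85, SE 0.11, adjusted p = 0.00246). Nop58, its partner in small nucleolar particles, had -0.83, the ribosomal protein gene Rpl10a -0.75 and the elongation factor subunit Eef1b2 -0.69.

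Transport genes of the nephron segments were higher at P6-P10. In the proximal tubule 28 of 36 tested genes were called higher and none lower, with a median of 0.78. Miox, the enzyme that breaks down inositol in the kidney, read 14.38, 14.71 and 14.82 at P6, P8 and P10, against 12.15, 13.29 and 13.63 at P0, P2 and P4 (1.62, SE 0.32, adjusted p = 0.00662). Slc34a3, a phosphate transporter, had a difference of 1.23 (SE 0.21, adjusted p = 0.00432), and Slc7a9, the light subunit of the cystine transporter, 1.18 (SE 0.13, adjusted p = 0.00246). Slc5a12, a lactate transporter (1.18), and Slc6a19, a neutral amino acid transporter (1.09, or 0.46 from a second probe), rose alongside. Of the 8 genes not called, the brush border peptidase Anpep had -0.04 (SE 0.17, adjusted p = 0.88), named after its value was seen.

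Enzymes of glucose making, a task of the proximal tubule, moved with it: 9 of 10 genes of gluconeogenesis and fructose use were called higher, with a median of 0.79. G6pc, the phosphatase that releases glucose, read 13.34, 13.23 and 13.49 at P6, P8 and P10, against 11.62, 11.41 and 12.30 at P0, P2 and P4 (1.58, SE 0.20, adjusted p = 0.00246). Khk, fructokinase, had 1.35, the bisphosphatase Fbp1 1.16 and pyruvate carboxylase Pcx 0.96. Of 30 genes of amino acid and ammonia handling, 17 were higher and 1 lower. Ass1 (1.22) and Asl (1.05, with 0.87 and 0.33 from other probes), which together make arginine in the kidney, were among the higher ones, with Prodh2 of hydroxyproline breakdown (1.16). Of 21 organic ion transporters 11 were higher and none lower, led by Slc51a (1.09) and Slc51b (0.85), the subunits of a bile acid and steroid exporter. Among drug-metabolising genes 10 of 31 were higher and 1 lower, with a median of 0.13.

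Later segments followed the same direction. In the thick ascending limb 10 of 13 genes were higher and 2 lower, with a median of 0.68. Umod, uromodulin, the main protein of normal urine, read 11.05, 11.27 and 11.47 at P6, P8 and P10, against 9.12, 9.33 and 10.14 at P0, P2 and P4 (1.73, SE 0.23, adjusted p = 0.00246). Egf, the growth factor precursor made in this segment, read 8.82, 9.59 and 10.48, against 8.28, 8.19 and 8.47 (1.32, SE 0.33, adjusted p = 0.0166), but its second probe gave 0.06 and the call was lost without P0, P2 or P8. Egf spanned more than 1 unit among the later ages, and Umod less than 1 unit. The 2 genes called lower were the transcription factors Sim2 (-0.60, above the filter on 1 of 3 later arrays) and Irx1, which was below it on all 3 and at least 1.15-fold lower.

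In the distal convoluted and connecting tubule 10 of 15 genes were higher and none lower, with a median of 0.54. Slc12a3, the thiazide-sensitive sodium chloride cotransporter, read 11.65, 11.90 and 12.06 at P6, P8 and P10, against 10.19, 10.46 and 10.88 at P0, P2 and P4 (1.36, SE 0.17, adjusted p = 0.00246). Kl, the co-receptor klotho, had 1.07. Of 12 intercalated cell genes 8 were higher and 1 lower, with Slc26a4, the chloride and bicarbonate exchanger pendrin, at 1.04 and the proton pump subunit Atp6v1b1 at 0.69. Principal cell genes were more mixed, with 6 of 19 higher and 3 lower. Hsd11b2, which protects the mineralocorticoid receptor from glucocorticoid, had 0.87 and the sodium channel subunit Scnn1a 0.69, against -0.60 for the transcription factor Gata3, whose call was lost without P8.

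Transcription factors of mature tubules divided: 8 of 16 were higher and 4 lower. Maf had 0.94, the vitamin D receptor Vdr 0.80 (0.36 from a second probe), the bile acid receptor Nr1h4 0.74 (not called without P2, P8 or P10) and Esrra, a nuclear receptor that drives mitochondrial genes, 0.67. In the glomerulus 5 of 20 podocyte genes were higher and 4 lower, with a median of -0.03. Col4a3 and Col4a4, chains of the mature glomerular basement membrane collagen, were higher by 0.75 and 0.79, while Wt1 and the forkhead factor Foxc2 (-0.79, above the filter on 1 of 3 later arrays) were lower. Endothelial genes showed 5 higher and 2 lower of 26, and extracellular matrix genes 2 higher and 4 lower of 29. Among 14 macrophage genes 1 was called, Laptm5, lower by 0.26 and not called without P2, P4, P8 or P10. These shares can be set beside the 14.6% higher and 15.6% lower over all genes.

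**Figure D2:**
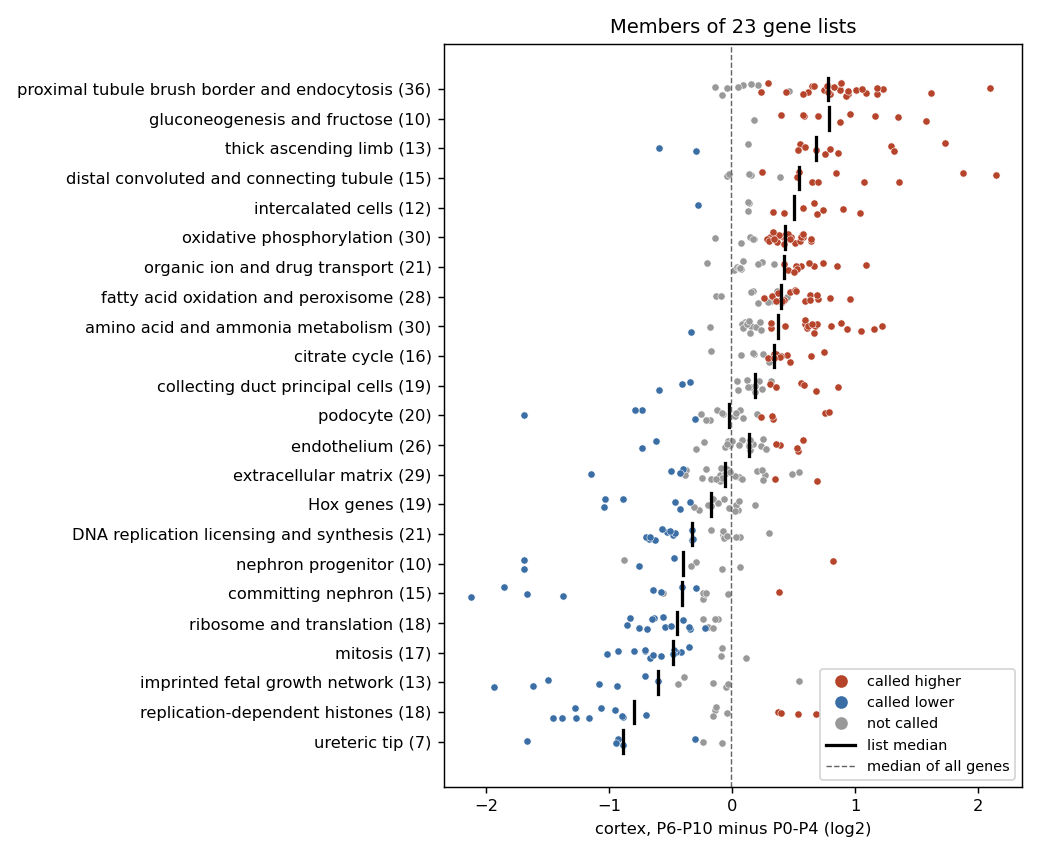
Log2 difference in cortex, P6-P10 minus P0-P4 (x axis), for the tested members of 23 gene lists, with the number tested in brackets; red and blue points were called higher and lower, grey points were not called, the black bar is the list median and the dashed line the median of all genes. Proximal tubule genes have a median of 0.78 and ureteric tip genes -0.89, and podocyte genes lie on both sides of 0.

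Promoters of 3 genes that rose are shown because each holds GTTAAT, one arm of the palindromic motif bound by the tubule factor HNF1, which the search read on both strands (ATTAAC on the other). The source and window are those given above, and capitals mark this element and the TATA box. Miox and G6pc are among the proximal tubule and gluconeogenesis genes above, and F13b is the gene with the largest rise of those that hold the element.
Miox (chr15:89334223-89334522, plus strand): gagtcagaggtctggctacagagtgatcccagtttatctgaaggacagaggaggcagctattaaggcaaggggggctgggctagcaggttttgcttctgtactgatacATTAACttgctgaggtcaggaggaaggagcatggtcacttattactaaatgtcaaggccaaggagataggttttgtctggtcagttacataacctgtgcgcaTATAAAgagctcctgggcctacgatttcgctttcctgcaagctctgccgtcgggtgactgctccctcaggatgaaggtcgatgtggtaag
G6pc (chr11:101367466-101367765, plus strand): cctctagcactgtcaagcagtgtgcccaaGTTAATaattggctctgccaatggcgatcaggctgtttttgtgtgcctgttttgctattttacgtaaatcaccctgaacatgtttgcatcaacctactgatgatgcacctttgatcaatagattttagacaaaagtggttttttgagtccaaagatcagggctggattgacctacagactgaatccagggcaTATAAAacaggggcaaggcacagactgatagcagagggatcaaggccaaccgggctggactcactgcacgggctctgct
F13b (chr1:139501457-139501756, plus strand): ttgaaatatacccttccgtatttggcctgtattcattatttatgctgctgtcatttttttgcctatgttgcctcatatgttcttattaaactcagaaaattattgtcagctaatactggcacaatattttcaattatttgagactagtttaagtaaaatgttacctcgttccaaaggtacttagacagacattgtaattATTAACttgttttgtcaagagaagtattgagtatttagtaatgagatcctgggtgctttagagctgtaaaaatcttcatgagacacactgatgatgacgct

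The element was in 10 of 60 promoters of genes called higher by 2-fold or more (16.7%), in 6.54% of all genes called higher, in 3.50% of genes called lower, in 4 of 44 promoters of those lower by 2-fold or more (9.09%), in 4.42% of genes tested and in 7.20% of all promoters. Besides the 3 shown, the 10 genes were Enpp6, Umod, Khk, Kcnj16, Prodh2, Dnase1 and Slc3a1. A match of 6 letters is a description of the window and was not tested as a binding site.

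Mitochondrial genes were higher by smaller amounts. Of 30 tested genes of oxidative phosphorylation 25 were called higher and none lower, with a median of 0.43 and a highest value of 0.65. Of 28 genes of fatty acid oxidation and peroxisomes 18 were higher and none lower (median 0.40), and of 16 citrate cycle genes 10 were higher and none lower (median 0.34). Cyc1, cytochrome c1, read 12.34, 12.32 and 12.43 at P6, P8 and P10, against 11.69, 11.72 and 11.97 at P0, P2 and P4 (0.57, SE 0.09, adjusted p = 0.00299). Ogdh, a subunit of the oxoglutarate dehydrogenase, had 0.75, the peroxisomal thiolase Acaa1b 0.96 and the enoyl-CoA isomerase gene Ech1 0.80. Glycolysis genes were split, with 3 of 12 higher and 2 lower: hexokinase Hk2 had -0.57 and the muscle-type pyruvate kinase Pkm -0.39, against 0.41 for the aldolase Aldoa. Each of these 3 calls was lost without P8, and those of Hk2 and Pkm also without P0 or P2. Hk2 was also not called without P6 or P10.

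Brown fat also uses these mitochondrial genes, and its markers were not level across the windows. The Ucp1 values given above make a difference of 1.78 (SE 0.59, adjusted p = 0.049), a call lost without P0, P2, P6 or P10. Of 18 brown fat genes on the array 12 were above the level filter on at least 1 of the 6 cortex arrays, 7 were called higher and 1 lower, and their summed linear intensity was 18685 to 20659 at P6-P10, against 12730 to 15252 at P0-P4. Between 39.2% and 50.7% of each sum was Fabp3, a fatty acid carrier of several tissues, and without it the sums were 9439 to 12555, against 6636 to 8323. The other 6, Elovl3, Dio2, Otop1, Ucp3, Ebf2 and Zic1, were below the filter on all 6 arrays. The 16 fat cell genes summed to 20348 to 20719, against 13616 to 17386. Between 51.1% and 58.4% of each of these sums was Gpd1, a glycerol phosphate dehydrogenase, and without it they were 8612 to 9949, against 6627 to 7639. Fabp4, Plin1, Cidec, Lep, Retn, Pparg and Cd36, defining genes of fat cells among them, were below the filter on all 6 arrays. P8 stood apart among the later ages: Cidea and Cox8b, further brown fat genes, and the fat cell hormone Adipoq were below the filter there (8.16, 8.15 and 8.19) and above it at P6 and P10.

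Cidea and Cox8b were also below it at P0 and P2, and Adipoq read 8.21 and 8.31 there, while Ucp1 was still higher at P8 than at P0 and P2. P8 alone was also set against P0 and P2, arrays that are all in the main comparison, so this is no separate check. In that fit the lone later array is assumed to vary like the others, so no count of calls is given. The medians there were 0.46 for oxidative phosphorylation, 0.46 for fatty acid oxidation and 0.90 for the proximal tubule. With all 3 earlier ages kept, P8 alone gave medians of 0.41, 0.41 and 0.77 for the same lists, again with no count given. With the Ucp1 level of the array added as a covariate the medians were 0.30, 0.34 and 0.63. In that fit 1 gene was called (1890 at an unadjusted p under 0.05), and 0 in each of these lists. Ucp1 itself differed between the windows, so the fit cannot part its level from age. The part of fat in the mitochondrial differences was not tested.

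Of other tissues, none of the 12 adrenal genes on the array was above the filter on any of the 6 cortex arrays. Albumin (Alb) was below it on all 6, and the summed intensity of 13 liver genes was 4445 to 4695 at P6-P10, against 3970 to 4260 at P0-P4. Without Apoa2 the liver ranges were 3619 to 4025 and 3654 to 3761, which overlap. Red blood cell genes summed to 44182 to 52807, against 38229 to 47965, ranges that overlap. Inner medulla and thin limb genes summed to 9997 to 11123, against 7303 to 8888, but without Aqp1, a water channel that the proximal tubule also makes, the ranges were 4315 to 5283 and 4483 to 5055. Urothelial genes summed to 5259 to 6540, against 4544 to 5218, or 2191 to 3100 and 2207 to 2489 without the keratin Krt7. The urothelial genes Upk2 (8.88), Upk3a (8.51) and Krt14 (8.36) were above the filter at P10 alone. Nerve and neural crest genes summed to 1824 to 1907, against 2055 to 2186, and Ngfr, a neurotrophin receptor, was the 1 gene of 7 above the filter. The part of these tissues in the differences was not tested.

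**Figure D3:**
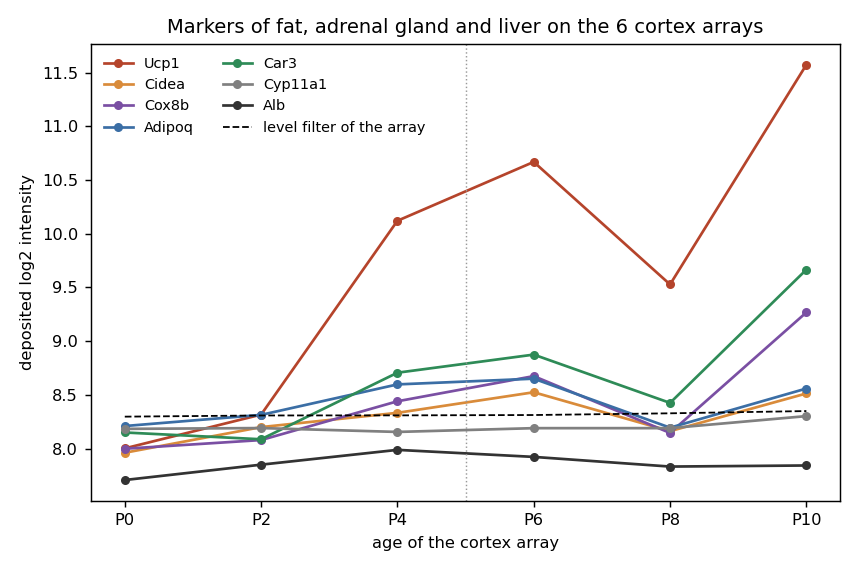
Deposited log2 intensity (y axis) of marker genes of brown fat (Ucp1, Cidea, Cox8b), fat cells (Adipoq, Car3), adrenal gland (Cyp11a1) and liver (Alb) on the 6 cortex arrays in order of age; the dashed line is the level filter and the dotted line parts the 2 windows. Ucp1 reads 10.12 at P4, 10.67 at P6, 9.53 at P8 and 11.57 at P10.

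The medulla at the same ages changed less. There 54 of the 8901 genes were called (0.607%), 28 higher (0.315%) and 26 lower (0.292%), and 1578 had an unadjusted p under 0.05 (17.7%), against 3745 in the cortex (42.1%). The median absolute difference was 0.15 in cortex and 0.08 in medulla, with median standard errors of 0.08 and 0.07. The difference between the regions was tested directly, as the interaction of region and age window with age as a block: 2430 genes were called (27.3%), 1203 with the cortex change above the medulla change (13.5%) and 1227 below (13.8%), and 3543 had an unadjusted p under 0.05 (39.8%). Across genes, which are not independent, the cortex and medulla differences had a Pearson r of 0.19.

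Among proximal tubule genes 30 of 36 had a higher change in cortex, and the medulla median was -0.11. The mitosis list had 14 of 17 genes with a lower change in cortex, and its medulla median was 0.04. Gja1 had -2.07 in cortex and -0.02 in medulla, a difference between changes of -2.04 (SE 0.17, adjusted p = 0.000381). G6pc had 1.58 in cortex and -0.19 in medulla (difference between changes 1.76, SE 0.18, adjusted p = 0.000383). Dpep1, a dipeptidase of the brush border, was higher by 1.06 in cortex and had -0.71 in medulla, where it was not called (adjusted p of the difference 0.000704). Igf2 had -1.94 in cortex and -2.14 in medulla, and the 2 changes did not differ past the threshold (difference 0.20, SE 0.11, adjusted p = 0.21). Col4a3 and Col4a4 had 0.74 and 0.79 in medulla, beside 0.75 and 0.79 in cortex (adjusted p of the difference 0.95 and 0.99), which does not show that the changes were equal.

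For some genes the change in medulla was the larger one. Of 8 tested thin limb and inner medulla genes, 5 had a lower change in cortex and 1 a higher one. Their median was 0.09 in cortex and 0.35 in medulla. Lcn2, the lipocalin NGAL, averaged 8.26 at P6-P10 and 8.93 at P0-P4 in cortex, against 11.16 and 9.12 in medulla (difference between changes -2.70, SE 0.47, adjusted p = 0.00222). In cortex Lcn2 was not called (limma adjusted p = 0.063) and was above the level filter on 1 of 3 later arrays. Igfbp2, an Igf-binding protein, was below the level filter on the 3 later cortex arrays and at least 1.42-fold lower there, and had 1.28 in medulla, where it was not called (adjusted p = 0.076). The neuropeptide Npy had -0.21 in cortex and 1.67 in medulla. The defensin Defb19 was at 11.05 and 11.09 in cortex, while in medulla it averaged 9.34 at P6-P10 and 11.38 at P0-P4.

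**Figure D4:**
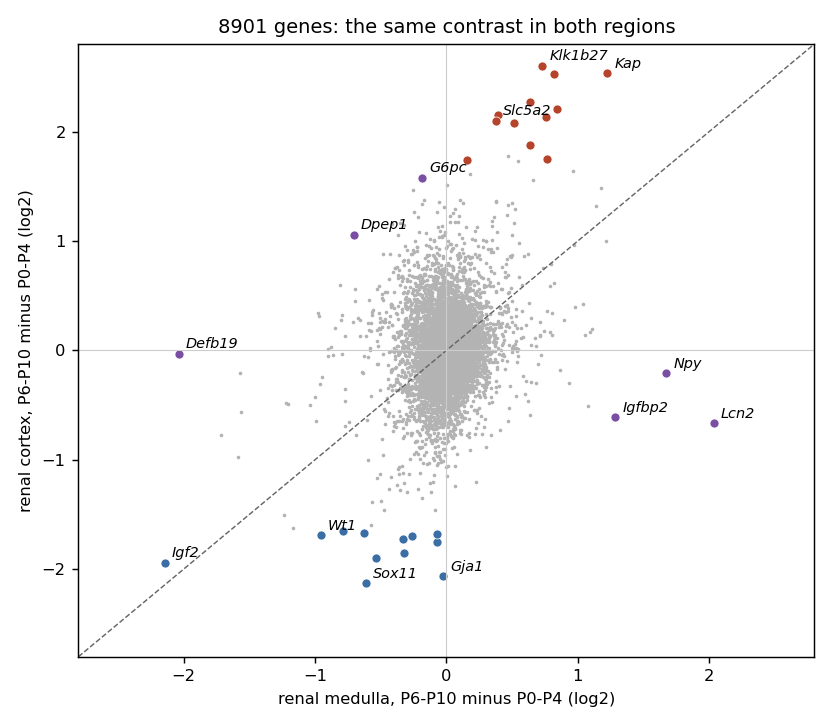
Log2 difference P6-P10 minus P0-P4 in medulla (x axis) and in cortex (y axis) for 8901 genes; red and blue are the 12 largest rises and falls in cortex, purple the further genes with the largest differences between regions, and the dashed line marks equal change. Most of the named cortex genes lie far above or below the dashed line, and Igf2 lies close to it.

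The 6 cortex ages show where the change lay. Over all 8901 genes 85 moved by 0.5 or more between P0 and P2, 248 between P2 and P4, 259 between P4 and P6, 108 between P6 and P8 and 45 between P8 and P10. In the medulla the same steps held 107, 69, 57, 73 and 58 genes. Each step compares 2 arrays, so it has no replicate check. Among the 1301 genes called higher in cortex the median change from P0 was 0.00 at P2, 0.16 at P4, 0.41 at P6, 0.51 at P8 and 0.52 at P10. Among the 1390 called lower it was 0.01, -0.15, -0.37, -0.48 and -0.49 at the same ages. The largest single step lay between P4 and P6 for 704 of the genes called higher (54.1%) and 668 of those called lower (48.1%), a place that the comparison of the 2 windows itself favours. The step before it, between P2 and P4, was the largest for 313 of the genes called higher (24.1%) and 396 of those called lower (28.5%).

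The same genes were also followed in the medulla and to the later ages. They were picked for their cortex change up to P10, which sets the cortex medians apart from 0 but not those of the medulla. The median change from P0 of the genes called higher in cortex was 0.03 in medulla at P10, and 0.33, 0.44 and 0.44 at P20, P30 and P90. In cortex it was 0.72, 0.72 and 0.71 at those ages. For the genes called lower the medulla median was -0.08 at P10 and -0.36, -0.48 and -0.54 at P20, P30 and P90, and the cortex median -0.69, -0.78 and -0.81.

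**Figure D5:**
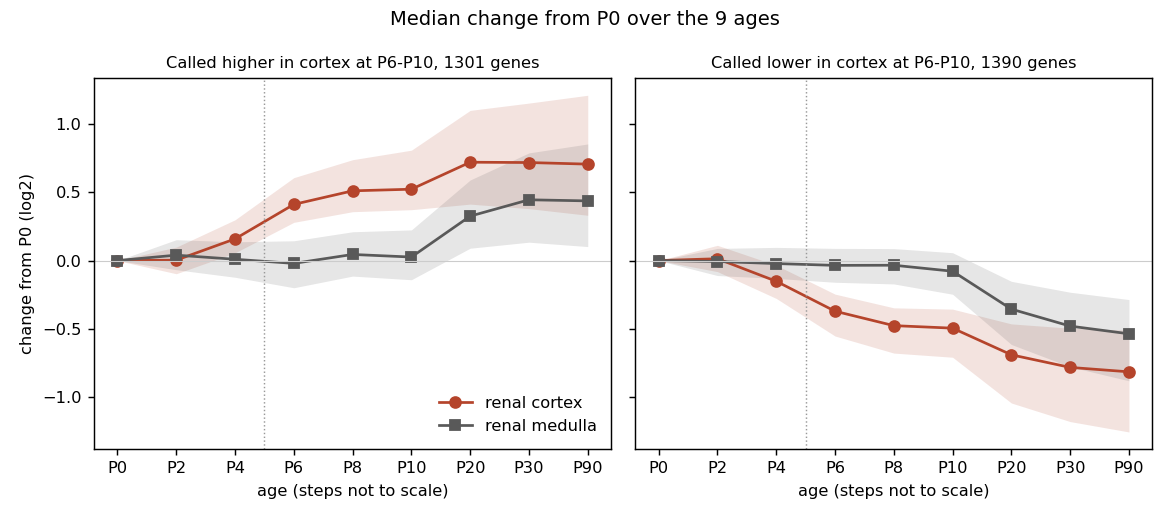
Median change from P0 (y axis, log2) at each of the 9 ages for the genes called higher (left) and lower (right) in cortex, in cortex (red circles) and medulla (grey squares); bands span the 25th to 75th percentile of genes and the dotted line parts the 2 windows. The cortex median of the genes called higher is 0.52 at P10, when that of the medulla is 0.03. The genes were picked for their cortex change alone.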

How the data were processed

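Male CD1 kidneys were dissected into cortex and medulla, and RNA pooled from 4 animals was hybridised to Illumina bead arrays, per the labels. The deposited table holds log2 intensities that the authors processed with the R packages lumi and limma, per the series text; the background correction, normalization method and kind of log2 scale are not given in the sources used here. Background left in dim probes can compress differences on such a scale. A second table with 36 columns that match no sample label was not used.

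Of 46630 probes 29975 had 1 gene symbol in the platform annotation, naming 17711 genes; 10 had several and 16645 none, and these were left out. Keeping those that passed the level filter (percentile 75, 3 of 18 arrays) left 11370 probes for 8901 genes, each read from its brightest probe. Fits used limma 3.58.1 in R 4.3.3 (lmFit, eBayes), and were checked on simulated data. Each main fit had 4 residual degrees of freedom, and fits with an array left out or a covariate added had fewer. The number of arrays limits the precision.

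The members and the 52 gene lists were chosen with earlier results of these data known, so lists are described by counts and medians with no test. Genes were named by rule: the 12 largest differences each way among calls whose windows do not overlap, the 6 largest each way for the difference between regions, and up to 4 (6 for progenitor, committing nephron, proximal tubule, replication and mitosis) called members of a list with the largest differences. Of the genes tested 7239 had a promoter in the RefSeq table. The alternatives changed the level filter, the choice of probe, the normalization, the arrays sharing a spread, the moderation, array weights, a slope on age, each array, the arrays with fat markers and, for the difference between regions, age as a block.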

Additional observations from a re-analysis of the deposited data

Results flagged for a closer look

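The change from P0-P4 to P6-P10 was compared between cortex and medulla by the interaction of region and age window (limma, 12 arrays). It differed (adjusted p under 0.05) for 29 of the 30 genes with the largest changes in cortex or the largest differences between regions. The genes with the largest differences between regions were picked from those called by this same test. The others were picked for large cortex changes, so the choice of genes largely fixed this count. Over all 193 genes named by rule, lists included, 157 differed, against 2430 of all 8901 genes tested (27.3%). Of the 193 genes, 189 were called in cortex, so this count also depends on how they were picked. Values are the cortex change minus the medulla change, log2.

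Among genes with the largest rises in cortex the difference was 1.88 for Klk1b27, 1.76 for Pvalb, 1.73 for Slc5a2, 1.70 for Rnase4, 1.63 for Klk1b5, 1.58 for Enpp6 and 1.56 for F13b. It was 1.38 for Angptl7, 1.36 for Klk1b26, 1.31 for Kap, 1.24 for Klk1 and 0.99 for Cyp4a14. All 12 were also above 0 in the medulla, where none was called.

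Among genes with the largest falls in cortex the difference was -2.04 for Gja1, -1.68 for Hs3st3b1, -1.61 for Tead2, -1.53 for Hey1, -1.52 for Sox11 and -1.43 for Uncx. It was -1.40 for Capn6, -1.36 for Fxyd6, -1.05 for Lhx1, -0.87 for Lsp1 and -0.73 for Wt1. Igf2 alone of the 12 had no such difference past the threshold.

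The largest differences between regions also included Defb19 (2.01), Dpep1 (1.76) and G6pc (1.76) with the cortex change above, and Lcn2 (-2.70), Igfbp2 (-1.90) and Npy (-1.88) with it below. For Npy the 3 later cortex arrays ranged from 8.15 to 9.55 and the 3 earlier ones from 8.32 to 10.16, so its cortex value is loose.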

How the results depend on the processing

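All 2691 genes called in cortex kept their direction wherever they were tested, except 1 gene with no filter on level, where the brightest probe can differ. The count of calls was 1857 with a slope on log2(day + 1) and 3656 with array weights, and lay between these under the other changes of filter, probe, normalization, spread and moderation. Leaving out 1 array gave 1414 (P8) to 3126 (P4), and 51 of the 189 named genes called lost their call without at least 1 array, most often without P8 (41) or P2 (40). It moved to 512 without P6 and P10, an alternative chosen after seeing the data, and to 1 with the Ucp1 level as a covariate (1890 unadjusted), a fit with 1 residual degree of freedom fewer. The cortex fits with 1 array left out had equally few residual degrees of freedom and kept at least 1414 calls. Ucp1 itself differed between the windows, so the covariate fit cannot part its level from age. In medulla no gene was called by limma with no filter on level (2207 unadjusted). Leaving out 1 array there, also added later, gave 0 to 355 calls by limma. The count was 0 without P0, P2 or P8 (1190, 1102 and 1335 unadjusted), 1 without P10, 32 without P6 and 355 without P4. For the difference between regions the fit with no replicate block gave 1827 calls against 2430 with age as a block, other settings 2067 to 2439, and leaving out 1 age of both regions 1441 (P2) to 2862 (P4), with 1566 without P0 and 1554 without P10. The age numbers pair arrays of 1 day only; the labels name no shared animals. Slide and scan were not given in the sources used here. Signal close to the level filter limits what can be said of Uncx, Etv4, Bub1b, Igfbp2 and Aldh1a3 at P6-P10. The same holds for genes above it on only some of the later cortex arrays, such as Dlk1, Rspo3 and Lcn2.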

Other observations

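Among the genes called higher at P6-P10, 172 of 1301 (13.2%) had lower values at P20, P30 and P90 than on any of the P6, P8 and P10 arrays. These genes were picked after their values were seen, each later age has 1 array, and no test was made. Nrep, a neuronal regeneration-related gene, read 13.78, 14.05 and 14.05 at P6, P8 and P10, against 13.46, 13.55 and 13.61 at P0, P2 and P4, and then 11.97, 10.26 and 9.34 at P20, P30 and P90. Ptgds, a prostaglandin D synthase, read 9.83, 10.36 and 10.47 at P6, P8 and P10, against 8.33, 8.68 and 9.21 at P0, P2 and P4, and 9.32, 8.61 and 8.13 at the last 3 ages. Apoe, a lipid carrier, and Hexa, a lysosomal hexosaminidase, had the same shape, with 10.81 and 11.38 at P10 against 8.86 and 9.60 at P90. The loop transporter Slc12a1 read 12.78 at P8 and 11.29 at P90 in cortex, while in medulla it read 13.12 and 13.26.

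In the other direction 70 of the 1390 genes called lower (5.04%) were higher at P20, P30 and P90 than at P6 to P10. Inmt, a methyltransferase that is high in adult male mouse kidney, read 8.31, 8.26 and 8.34 at P6, P8 and P10, against 8.71, 8.90 and 8.38 at P0, P2 and P4, and 8.88, 13.57 and 14.59 at P20, P30 and P90. Its call is weak: the adjusted p was 0.0496, it was lost without P0, P2, P6, P8 or P10, and only 1 of the 3 arrays at P6 to P10 was above the level filter. Gldc, of glycine breakdown, was below the level filter at P6 to P10 (8.20, 8.05 and 8.01) and read 10.18 at P20. Slc5a10, a sugar transporter, read 9.98, 9.67 and 9.49 at P6, P8 and P10, against 10.50, 10.14 and 9.98 at P0, P2 and P4, and 11.99 at P90.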
